A study of Rattus norvegicus and Ovis aries with 113 samples.

Results

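The entorhinal cortex of sheep (Ovis aries) was described by its RNA in 5 libraries, 1 from each of 5 post-pubertal rams, out of 113 libraries in the whole series. These were the libraries labelled entorhinal cortex, and each was set against the mean of the libraries labelled frontal, motor, prefrontal, posterior parietal and visual cortex from the same animals, 25 in all. The animals carry the numbers 687, 688, 690, 694 and 699, no treatment was applied, and every dissection of a sheep came from the same hemisphere. The series was made to look for genes that link neurological and reproductive functions, and its other brain regions, sperm libraries and rat libraries were not used here. The sources used here state neither breed nor age in years.

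The entorhinal cortex lies at the edge of the temporal lobe and passes information between the neocortex and the hippocampus. It is periallocortex, a transitional cortex whose layers differ from those of the neocortex: its superficial layer holds RELN-positive and CALB1-positive projection neurons, whose axons reach the hippocampus. The same dissection lies close to the hippocampus, the amygdala, the pia and the temporal horn of the lateral ventricle, whose wall is covered by ependymal cells with motile cilia. In bulk tissue, fewer cells of a type and less RNA per cell cannot be told apart.

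Library totals, in units of 1000000 counts, were 49.86 to 61.92 in the entorhinal libraries and 49.18 to 72.4 in the neocortical ones, and no 2 columns were identical. Values below are counts per 1000000 scaled by library factors (CPM). A gene was called when the edgeR quasi-likelihood test, with sheep as a block, reached 0.05 after Benjamini-Hochberg adjustment over all tested genes and the groups differed by 1 or more on the log2 scale. Each standard error (SE) is of the fitted log2 fold change, and each SD is over libraries.

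The labels were first checked against defining markers, and several libraries stood apart. CUX2, a transcription factor of upper-layer cortical neurons, was at 41.9 CPM (sheep 687), 65.2 (688), 58.5 (690), 7.48 (694) and 5.70 (699) in the entorhinal libraries. Neocortical libraries had a median of 87.2 CPM for CUX2, but the library labelled motor cortex of sheep 687 had 10.0 CPM, while the other 24 lay between 34.6 and 128. The entorhinal libraries of sheep 687, 688 and 690 were inside that range, and those of sheep 694 and 699 and the library labelled motor cortex of sheep 687 were the 3 lowest of all 30.

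TBR1, a transcription factor of glutamatergic cortical neurons, was at 23.5, 83.5, 22.6, 3.44 and 5.45 CPM in the entorhinal libraries of sheep 687, 688, 690, 694 and 699. The library labelled motor cortex of sheep 687 had 3.20 CPM of TBR1, and the other neocortical libraries 13.8 to 79.2. Neither gene was called over the 5 sheep, where CUX2 differed by -1.31 ± 0.41 (SE) on the log2 scale (edgeR adjusted p 0.0526) and TBR1 by -0.80 ± 0.52 (adjusted p 0.333). SLC17A7, the vesicular glutamate transporter of cortical excitatory neurons, did not separate the groups either, at 440 ± 145 CPM (SD, n = 5) in entorhinal and 462 ± 161 (SD, n = 25) in neocortical libraries.

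FOXJ1, the transcription factor that switches on motile cilia and marks ependymal cells, was at 24.6, 0.207, 0.985, 11.8 and 28.5 CPM in the entorhinal libraries of these sheep in the same order. The library labelled motor cortex of sheep 687 had 24.8 CPM, and no other neocortical library exceeded 0.930. High FOXJ1 was thus found in 3 of 5 entorhinal libraries and 1 of 25 neocortical ones. TTR, the thyroid hormone carrier made by choroid plexus, was at 235, 1.80, 205, 137 and 91.3 CPM in the same order of sheep, at 757 in the library labelled motor cortex of sheep 687, and at 0.199 to 59.6 in the other 24. On the first principal component, which held 27.7% of the variance, the entorhinal library of sheep 688 lay at 26.58 and the other 4 between -45.1 and -25.83. The library labelled motor cortex of sheep 687 lay at -23.81 and that labelled posterior parietal cortex of sheep 694 at -41.94. CUX2, TBR1, FOXJ1 and TTR in the library labelled motor cortex of sheep 687 thus went against its label. Its BCL11B, a gene described below, lay inside the range of the other 24 neocortical libraries. The entorhinal library of sheep 688 lay apart from the other 4 entorhinal ones. The labels of these 2 libraries may be wrong, which was not tested. They were kept, so the values given for entorhinal cortex and neocortex take them as they stand.

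GABRA6, a GABA-A receptor subunit largely restricted to cerebellar granule cells, was at 10.5 CPM in the entorhinal library of sheep 687, from 697 counts. The entorhinal library of sheep 690 had 0.297 CPM, the other 3 had 0 counts, and the highest neocortical library had 0.0207. Of 18 cerebellar markers, 13 were highest of all 30 libraries in the entorhinal library of sheep 687. They included the granule cell genes FAT2 (12.3 CPM, against at most 3.37 elsewhere) and CBLN3 (29.8 against 4.00), the Purkinje cell gene PCP2 (6.65 against 1.49) and the midbrain-hindbrain factor EN2 (4.71 against 0.186). ZIC1, ZIC2, ZIC4, GRM4 and CA8 were higher in another library. CBLN3 was the 1 cerebellar marker of 10 tested that was called (log2 fold change 1.62 ± 0.39, edgeR adjusted p 0.0155), and it was not called without this library.

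**Figure D1:**
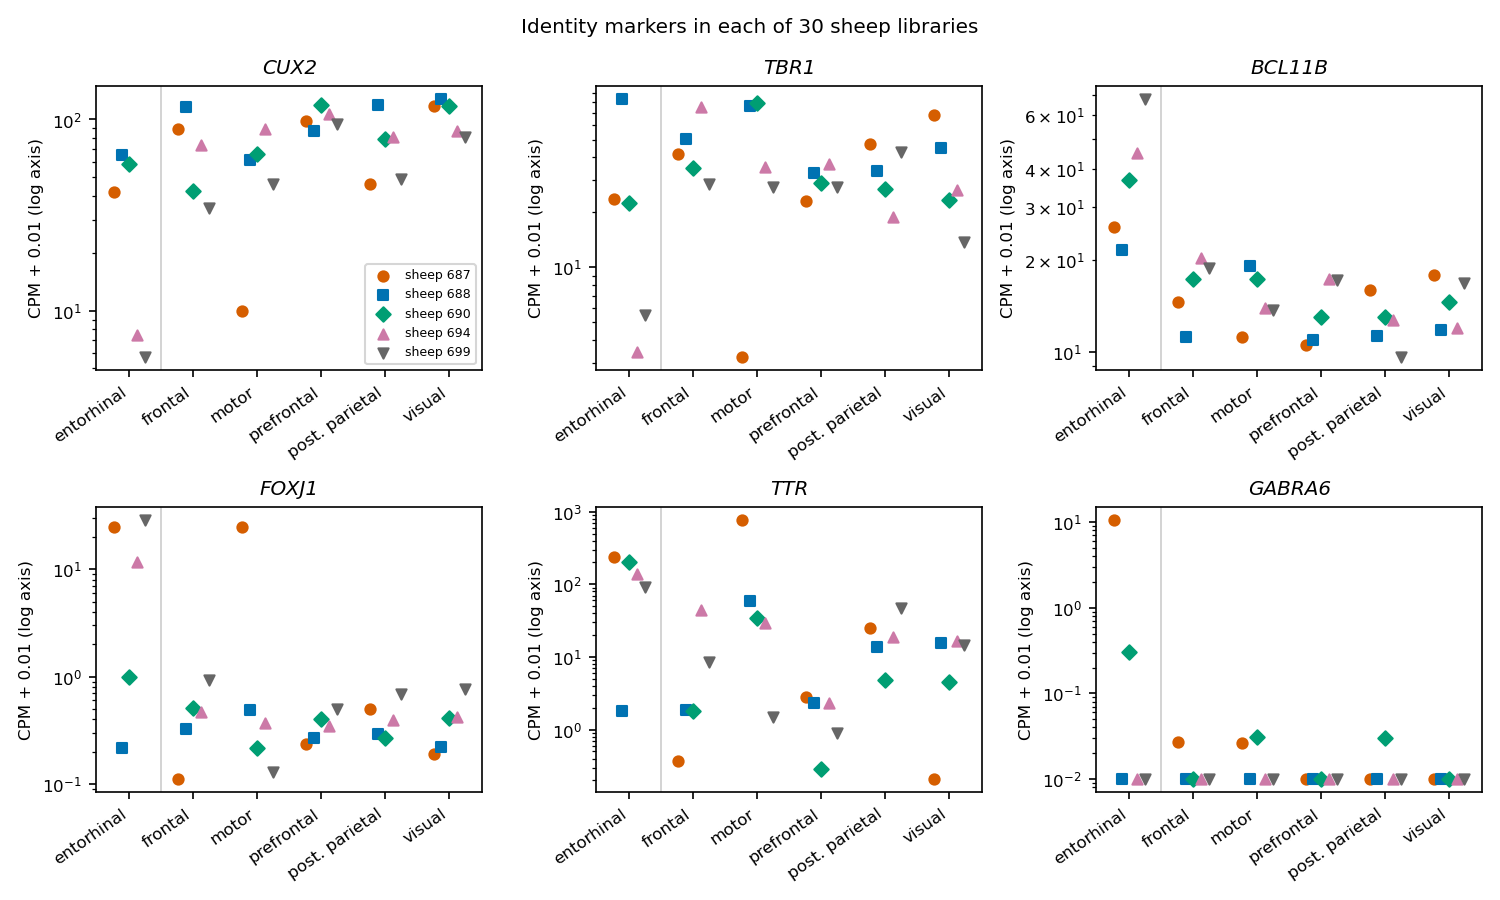
CPM plus 0.01 on log axes for 6 identity genes in each of the 30 libraries, by region on the horizontal axis, with 1 point per library marked by sheep. CUX2 and TBR1 are low, and FOXJ1 and TTR high, in the motor library of sheep 687 (orange circles), GABRA6 reaches 10.5 CPM in the entorhinal library of the same sheep, and all 5 entorhinal values of BCL11B lie above all 25 neocortical ones.

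Over all 5 sheep, 577 of 20352 genes tested (2.84%) were called between entorhinal cortex and neocortex, 468 higher (2.30%) and 109 lower (0.536%) in the entorhinal libraries. The higher genes included 134 with placeholder names and the lower genes 38. Among the called genes, 147 of the 468 higher and 100 of the 109 lower ones moved the same way in all 5 sheep. The shares of 2.30% higher and 0.536% lower over all genes are the background for the list counts below. Called or not, 5376 of the 20352 genes were at an unadjusted p below 0.05, in either direction. Leaving out the library labelled motor cortex of sheep 687 raised the called genes to 631 higher and 208 lower and kept every one of the 577 calls. Without the entorhinal library of sheep 687 there were 298 higher and 50 lower genes, and 279 and 35 of the original calls remained. Without the libraries of sheep 687 from both places there were 420 higher and 143 lower.

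The count rested on single entorhinal libraries in both directions. It was 139 higher and 6 lower without that of sheep 694, 143 and 11 without that of sheep 699, and 728 and 311 without that of sheep 688. Of 56 called genes among the named genes, markers and list members examined, 16 kept their call without each entorhinal library in turn, among them BCL11B, FREM1, CDH12, VIP, SFRP2, CHRM5, HSPA2 and CAPSL. The test takes its spread from all 30 libraries, so it assumes that entorhinal libraries vary like neocortical ones. When the 5 neocortical libraries of each sheep were summed to leave 5 pairs, edgeR called 0 of 21365 genes, with 4742 at an unadjusted p below 0.05. For 1 gene over 5 pairs, an exact two-sided sign-flip test cannot go below 0.0625.

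**Figure D2:**
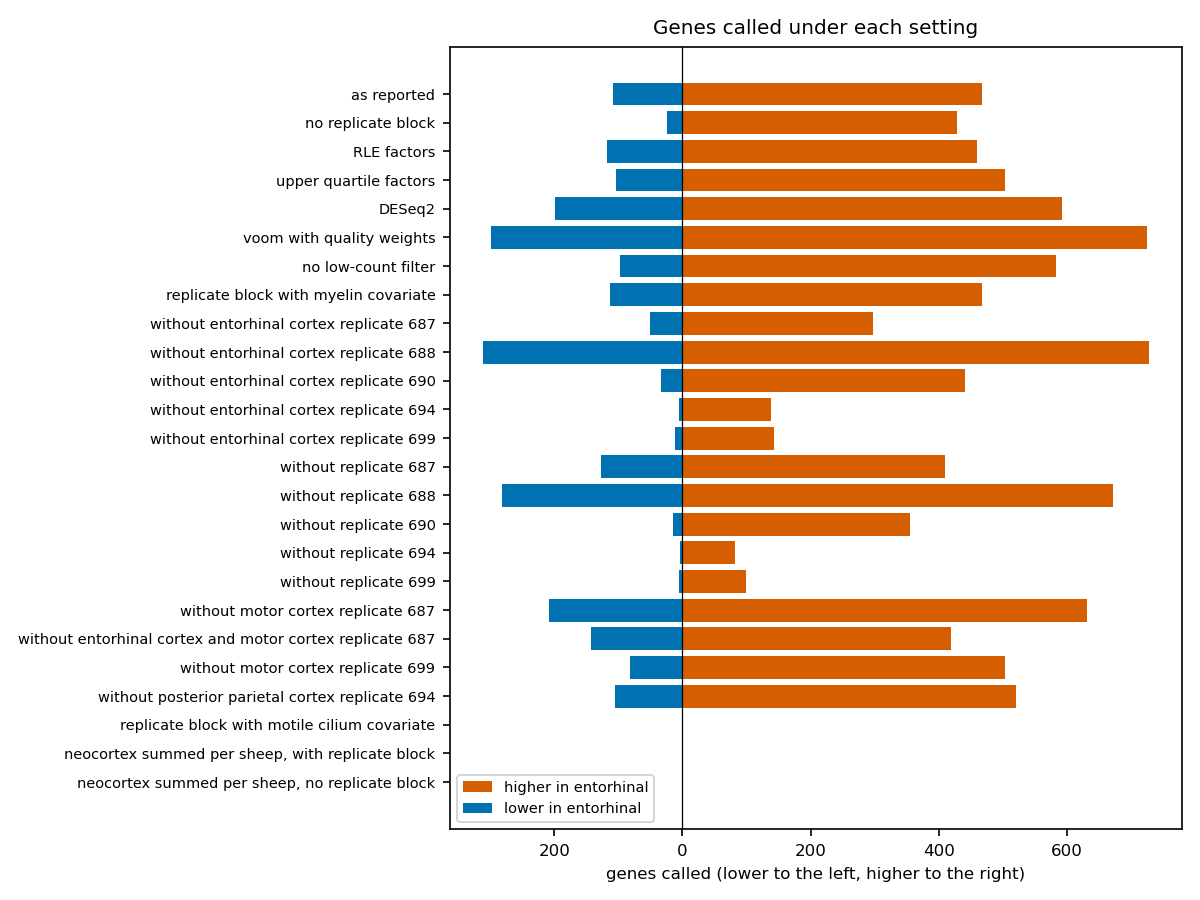
Genes called higher (orange, to the right) and lower (blue, to the left) in entorhinal cortex as reported and under each alternative fit. Leaving out the entorhinal library of sheep 694 or 699 shortens both bars, leaving out that of sheep 688 lengthens both, and no gene is called with the summed neocortex or with the cilium score in the model.

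BCL11B (also known as CTIP2), a transcription factor of subcortically projecting deep-layer neurons and of hippocampal and striatal neurons, was the only gene whose entorhinal values all lay above all neocortical values. This non-overlap held for 0.00491% of tested genes, and for 0 genes in the lower direction. BCL11B was at 25.8 CPM in the entorhinal library of sheep 687, 21.7 in 688, 36.8 in 690, 45.2 in 694 and 67.9 in 699, against neocortical means of 14.0, 12.9, 15.1, 15.3 and 15.2 in the same sheep. The highest neocortical library had 20.4 CPM. Its log2 fold change was 1.39 ± 0.16 (SE), with an edgeR adjusted p of 1.15e-04 and the same direction in 5 of 5 sheep.

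Region by region, the log2 difference of BCL11B was 1.23 against frontal, 1.31 against motor, 1.48 against prefrontal, 1.58 against posterior parietal and 1.38 against visual cortex. The adjusted p of edgeR was 0.0254, 0.0507, 0.0117, 0.00483 and 0.0176 in that order, so the call against motor cortex was missed. It was made without the library labelled motor cortex of sheep 687. That library was not high for BCL11B, at 11.2 CPM against 9.58 to 20.4 in the other 24 neocortical libraries. Why its removal changed the call was not tested. The fold change stayed between 1.15 and 1.53 when libraries or sheep were left out. With the neocortex summed per sheep it was 1.35 ± 0.21, with an adjusted p of 0.127.

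Few other projection neuron genes were called. Of 31 tested, 2 were called higher, BCL11B and BHLHE22, and 1 lower, LAMP5, and the list's median log2 fold change was -0.05, against 0.01 over all genes. BHLHE22, a transcription factor of superficial and area-specific projection neurons, was at 49.9, 10.4, 52.0, 81.9 and 89.3 CPM in sheep 687, 688, 690, 694 and 699, with a neocortical median of 18.3 and a maximum of 60.7 in the library labelled motor cortex of sheep 687. The entorhinal library of sheep 688 was below the neocortical median and the other 4 were above every neocortical library but that 1. Its log2 fold change was 1.45 ± 0.35, with an edgeR adjusted p of 0.0163, and the call was lost without the entorhinal library of sheep 694 or of sheep 699.

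LAMP5, a membrane protein of superficial neurons and neurogliaform cells, was lower, at 46.4, 63.0, 24.7, 28.5 and 16.0 CPM against own-sheep neocortical means of 90.4, 80.5, 73.5, 65.6 and 55.8. All 5 sheep showed the same direction, and the groups overlapped (log2 fold change -1.06 ± 0.25, edgeR adjusted p 0.0158). The call was lost without the entorhinal library of sheep 690, 694 or 699. RASGRF2, an exchange factor of upper-layer neurons, and INA, the neurofilament alpha-internexin, had log2 fold changes of -0.86 ± 0.19 and -0.54 ± 0.11 with edgeR adjusted p of 0.00903 and 0.00516, below the fold needed for a call.

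Genes described in entorhinal layers gave 1 higher and 1 lower call of 16 tested, with a median of -0.11. RELN, the secreted layer-organising glycoprotein of the superficial stellate cells, was at 74.6, 18.3, 226, 102 and 27.4 CPM, and neocortical libraries ranged from 23.8 to 157. The groups overlapped, and the log2 fold change was 0.02 ± 0.38 (edgeR adjusted p 0.985). CALB1, the calcium buffer calbindin, was called higher (2.30 ± 0.42, edgeR adjusted p 0.00269), with 18.5 CPM in sheep 687, 0.242 in 688, 3.44 in 690, 1.23 in 694 and 1.13 in 699. Within sheep it differed by 3.85, -0.65, 1.72, 0.78 and 0.57 on the log2 scale with 0.5 CPM added. Without the entorhinal library of sheep 687, which held the cerebellar transcripts, its log2 fold change was 1.20 and the call was lost (edgeR adjusted p 0.0603). It was 1.20 and called when the motor library of that sheep was left out too (adjusted p 0.0367). Calbindin is also abundant in cerebellar Purkinje cells, whose part in the value was not tested.

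NTS, the neuropeptide neurotensin, was called lower (-1.84 ± 0.52, edgeR adjusted p 0.0350), at 1.16, 7.33, 3.12, 1.23 and 0.952 CPM against a neocortical median of 7.10, and this call was lost without the entorhinal library of sheep 687, 690, 694 or 699. Of 8 genes of the claustrum and lateral cortex edgeR called 0, with 4 higher and 2 lower at an unadjusted p below 0.05, and DESeq2 and voom also called 0. GNB4, a G protein subunit, and NTNG2, the synaptic adhesion protein netrin-G2, were higher below the fold threshold, by 0.65 ± 0.19 and 0.67 ± 0.18 on the log2 scale (edgeR adjusted p 0.0391 and 0.0292).

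Among 30 genes of cortical area patterning, 2 were called higher and 1 lower, with a median of -0.03. LIX1 was at 2.12, 0.674, 4.15, 19.6 and 6.23 CPM against a neocortical median of 0.742 (log2 fold change 2.51 ± 0.58, edgeR adjusted p 0.0123), and BHLHE22, counted above, was the other. TSHZ3, a zinc-finger factor of corticofugal neurons, was at 5.92, 18.7, 5.24, 5.30 and 3.35 CPM against own-sheep means of 16.0, 20.8, 19.3, 18.2 and 15.5. The entorhinal library of sheep 688 was near its own neocortex and the other 4 were well below theirs (-1.36 ± 0.31, edgeR adjusted p 0.0114).

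Inhibitory neuron genes were lower in part. Of 29 tested, 0 were called higher and 2 lower, VIP and PVALB, and the median log2 fold change was -0.34. Without regard to fold, 7 of the 29 were lower and 0 higher at an edgeR adjusted p below 0.05, where 2.62% of all genes were lower and 4.62% higher, and 2 were higher at an unadjusted p below 0.05. VIP, the peptide of disinhibitory interneurons, was at 23.0, 17.2, 15.8, 7.94 and 18.9 CPM in sheep 687, 688, 690, 694 and 699. The own-sheep neocortical means were 30.7, 42.3, 50.8, 37.0 and 44.1 CPM, each above its entorhinal partner, and the single neocortical libraries overlapped the entorhinal ones from a minimum of 12.4, in the library labelled motor cortex of sheep 687.

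The log2 fold change of VIP was -1.26 ± 0.24, with an edgeR adjusted p of 0.00369. It was called without any 1 entorhinal library, between -1.56 without that of sheep 687 and -1.07 without that of sheep 694. The call was lost without all libraries of sheep 694 or of sheep 699 (edgeR adjusted p 0.0603 and 0.0509), and with the neocortex summed per sheep or the cilium score in the model. VIP was lower than its own neocortex in the entorhinal library of sheep 688 too. HTR3A, the ion-channel serotonin receptor of the same interneuron class, was at 2.50, 1.83, 1.52, 0.668 and 0.831 CPM against own-sheep means of 3.61, 5.23, 4.82, 3.95 and 4.85 (-1.57 ± 0.34, edgeR adjusted p 0.00774).

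GAD2, which makes GABA, was at 89.2, 104, 93.1, 86.8 and 110 CPM, with a neocortical minimum of 101 and median of 150. The entorhinal values were close together, at 96.7 ± 10.0 CPM (SD, n = 5), and overlapped only the low end of the neocortex, at 151 ± 28.2 (SD, n = 25). Its log2 fold change of -0.62 ± 0.11 (edgeR adjusted p 0.00165) missed the fold threshold. SLC32A1, which loads GABA into vesicles, was lower in 5 of 5 sheep, with a difference of -0.69 ± 0.14 (edgeR adjusted p 0.00497), and DLX1, a transcription factor of the interneuron lineage, differed by -0.61 ± 0.12 (edgeR adjusted p 0.00439).

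PVALB, the calcium buffer of fast-spiking basket cells, was at 7.80, 31.0, 4.67, 0.622 and 6.38 CPM against own-sheep means of 26.8, 49.5, 21.9, 41.3 and 31.6. It was lower in 5 of 5 sheep, but neocortical libraries alone ranged from 3.93 to 103 CPM. Its log2 fold change was -2.03 ± 0.62, with an edgeR adjusted p of 0.0470 that became 0.108, 0.111, 0.152 and 0.135 without the entorhinal library of sheep 687, 690, 694 or 699. SST, the peptide of another large interneuron class, was at 133 ± 34.9 CPM (SD, n = 5) against 168 ± 68.0 (SD, n = 25), with an edgeR adjusted p of 0.435.

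**Figure D3:**
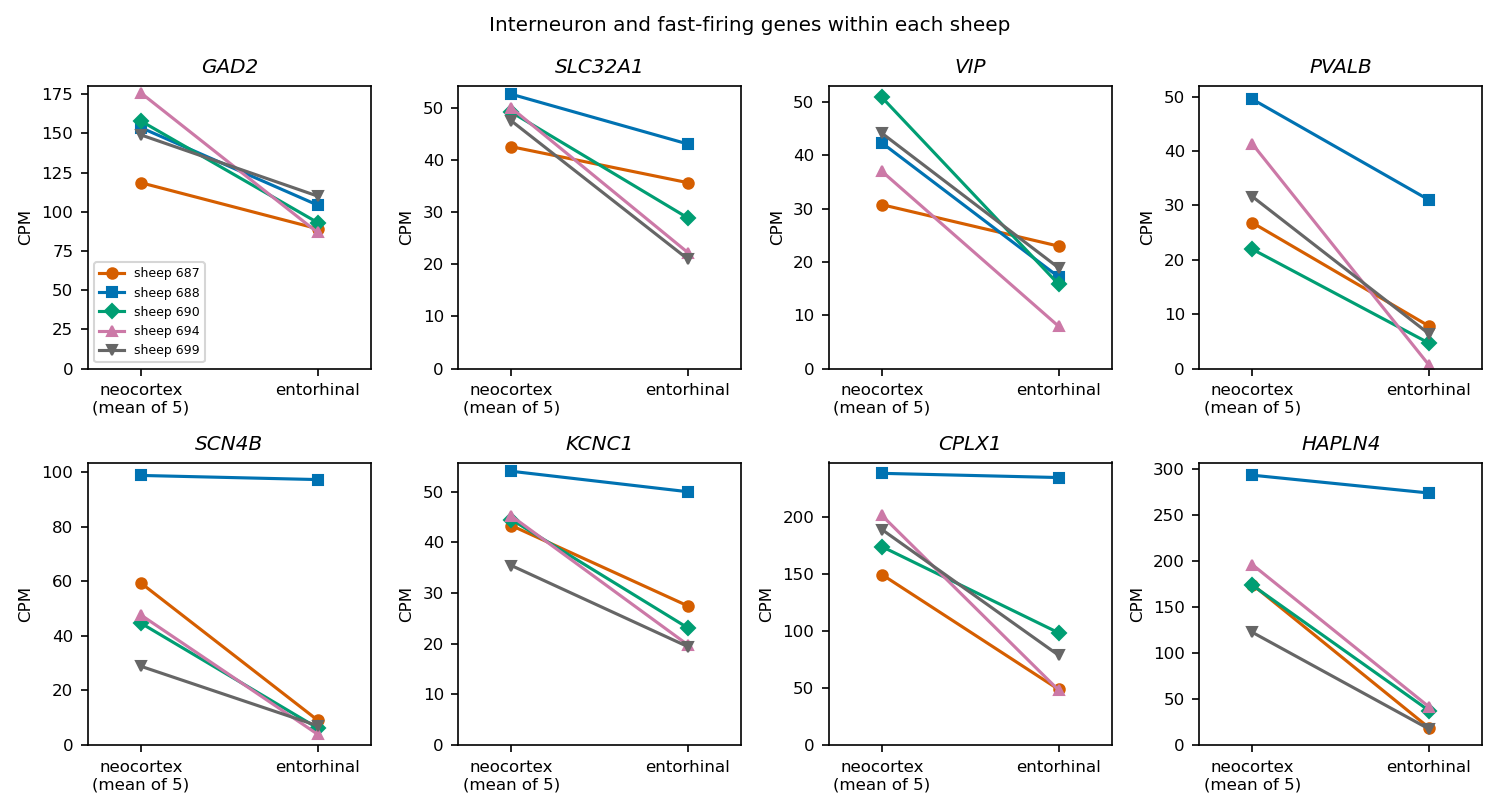
CPM of 8 genes within each sheep, with the mean of its 5 neocortical libraries on the left and its entorhinal library on the right, and 1 line per animal. All lines fall, and for SCN4B, KCNC1, CPLX1 and HAPLN4 the line of sheep 688 falls least.

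Channel genes for fast firing had lower values in the entorhinal libraries, least so in sheep 688. All 19 tested members had a log2 fold change below 0, with a median of -0.73 against 0.01 over all genes. Called lower were 4 of the 19, beside 0.536% of all genes, and 0 were called higher. At an edgeR adjusted p below 0.05 without regard to fold, 11 of the 19 were lower and 0 higher. The called members included SCN4B, an accessory subunit of voltage-gated sodium channels, KCNAB3, an accessory subunit of potassium channels, and CPLX1, a regulator of fast vesicle release.

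SCN4B was at 9.13, 97.2, 6.25, 3.96 and 7.07 CPM against own-sheep means of 59.3, 98.7, 44.6, 47.6 and 28.8. The entorhinal library of sheep 688 was near its own neocortex, and the other 4 were well below theirs, with the lowest neocortical library, that labelled motor cortex of sheep 687, at 8.10. The log2 fold change was -1.87 ± 0.58 with an edgeR adjusted p of 0.0498. CPLX1 was also highest in sheep 688, at 235 CPM, and stood at 48.2 to 98.6 in the other 4 (-1.03 ± 0.27, edgeR adjusted p 0.0269). Averaged over its members as log2(CPM + 1), the list stood at 5.71 in the entorhinal library of sheep 688 and at 4.35 to 4.50 in the other 4, while neocortical libraries lay between 4.68 and 6.03.

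The calls in this group depended on which libraries were used. There were 0 without the entorhinal library of sheep 687, 690, 694 or 699, with medians between -0.82 and -0.62, and 7 without that of sheep 688, with a median of -0.88. Without both the entorhinal and the motor library of sheep 687 there were 2, with a median of -0.71, and without the sheep block 0, with a median of -0.67. With the cilium score in the model there were 0, and the median moved to -0.33. HAPLN4, a perineuronal net link protein of the axon's nodes and of inhibitory synapses, was likewise highest in sheep 688, at 18.7, 274, 37.4, 41.4 and 17.4 CPM in sheep 687, 688, 690, 694 and 699 against a neocortical median of 169. It was the only called member, lower, of 15 perineuronal net and lectican genes (-1.84 ± 0.49, edgeR adjusted p 0.0252), and that call needed each entorhinal library other than that of sheep 688. VCAN, the proteoglycan versican, was higher below the fold threshold (0.89 ± 0.20, edgeR adjusted p 0.0114), and the list's median was 0.38.

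Few receptor genes were called. Among 14 GABA-A subunits 1 was called, lower, and the median was -0.26. GABRB2, a beta subunit, was at 98.8, 231, 79.0, 114 and 54.5 CPM against own-sheep means of 168, 240, 195, 217 and 132, and its difference of -0.79 ± 0.22 (edgeR adjusted p 0.0341) was less than the fold needed for a call. Of 25 glutamate receptor genes 1 was called, GRIN2C, higher at under 1 CPM in 4 of 5 entorhinal libraries and 2.84 CPM in that of sheep 687, and the call was lost without that library.

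Of 39 receptors for monoamines, acetylcholine and opioids, 2 were called higher and 2 lower, with a median of -0.37. CHRM5, a muscarinic receptor, was at 4.24, 0.225, 3.74, 3.96 and 4.02 CPM, against 0.0811 to 14.7 in neocortex, where the maximum was the library labelled motor cortex of sheep 687 and the median 0.352. It was high in the 4 entorhinal libraries other than that of sheep 688 (2.59 ± 0.52, edgeR adjusted p 0.00513). DRD3, a dopamine receptor, was higher at 0.578 ± 0.192 CPM (SD, n = 5) against 0.235 ± 0.132 (SD, n = 25), with an edgeR adjusted p of 0.00526, and HTR3A and CHRNA5 were the lower ones.

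Among 23 tested neuropeptide genes, 1 was called higher and 3 lower (median -0.19). PDYN, which encodes the opioid prodynorphin and acts in the brain control of reproduction, was at 29.0 CPM in sheep 687, 4.01 in 688, 31.5 in 690, 67.1 in 694 and 33.0 in 699. Neocortical libraries had a median of 6.44 and a maximum of 26.6 CPM, in the library labelled motor cortex of sheep 687, so 4 entorhinal libraries exceeded all of them and that of sheep 688 did not. The log2 fold change was 1.81 ± 0.39 with an edgeR adjusted p of 0.00797, which became 0.104 without the entorhinal library of sheep 694 and 0.0575 without that of sheep 699. VIP, NTS and UCN, the stress peptide urocortin, were lower, and UCN was below 1 CPM in each entorhinal library.

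Since the series asks about reproduction, 24 genes of sex steroids and the reproductive axis were listed, of which 22 were in the count table. Of 20 tested, 2 were called higher, PDYN among them, and 0 lower, with a median of 0.27, and 2 were lower at an unadjusted p below 0.05. The higher calls fell to 0 without the entorhinal library of sheep 694 or of sheep 699. ESR1, the estrogen receptor alpha, was at 36.9 CPM in sheep 694 and 1.71 to 8.42 in the other 4, and its log2 fold change was 1.45 ± 0.47 (edgeR adjusted p 0.0576). GNRH1 had 0 counts in each entorhinal library and KISS1 was below 0.1 CPM, and neither entered the test.

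In the WNT pathway 2 of 31 genes were called higher and 1 lower, with a median of 0.03. SFRP2, a secreted modulator of WNT signals, was at 39.1, 5.01, 17.4, 36.4 and 31.9 CPM against own-sheep means of 13.3, 2.95, 3.84, 9.78 and 9.47. Every animal was higher in entorhinal cortex, and the only neocortical library above every entorhinal one was that labelled motor cortex of sheep 687 (1.77 ± 0.31, edgeR adjusted p 0.00183). FZD7, a WNT receptor, was called higher and DKK2, a WNT antagonist, lower, with differences of 1.02 ± 0.25 and -1.15 ± 0.29 and edgeR adjusted p of 0.0185 and 0.0198, and neither was called without the entorhinal library of sheep 687, 694 or 699. In the retinoic acid pathway 1 of 16 was called higher, the nuclear receptor RXRG (1.49 ± 0.40, edgeR adjusted p 0.0276), and the median was -0.04.

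Motile cilium genes gave the most calls of the 28 lists. Of 90 tested members of the axonemal dynein, cilia and flagella associated, radial spoke and tektin families, 46 were called higher and 0 lower. Over all genes 2.30% were called higher and 0.536% lower. Of the 90, 2 were lower at an unadjusted p below 0.05, and the median log2 fold change was 1.07. The called members made up 9.83% of the genes called higher. The list was built from gene names, so ciliary genes outside it, such as AK7 and CAPSL below, are not in this share. RSPH4A, a radial spoke protein, was at 5.67, 0.0691, 0.204, 4.61 and 9.87 CPM, at 5.66 in the library labelled motor cortex of sheep 687, and had a neocortical median of 0.0303. DNAH5, an outer dynein arm motor, was at 25.2, 2.23, 7.30, 26.5 and 26.9 CPM, at 21.3 in that motor library, and had a neocortical median of 2.42.

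The cilium genes were high in the entorhinal libraries of sheep 687, 694 and 699. Set against the other neocortical libraries of the same sheep, after 0.5 CPM was added, 50, 47 and 55 of the 90 were more than 2-fold higher there, against 0 in sheep 688 and 1 in sheep 690. The library labelled motor cortex of sheep 687 had 51. With the cilium score added to the model beside the sheep block, edgeR called 0 of 20352 genes, with 825 at an unadjusted p below 0.05. That score, the list's mean of log2(CPM + 1), was 2.92, 2.76 and 3.14 in the entorhinal libraries of sheep 687, 694 and 699. It was 1.74 and 1.89 in those of sheep 688 and 690. In neocortex it was 2.94 in the library labelled motor cortex of sheep 687 and at most 1.92 elsewhere. Since the score overlaps with the region labels, the fit cannot separate cilium content from region. Without the entorhinal library of sheep 687, without the motor library of that sheep and without both, 39, 50 and 46 cilium genes were called. Without the entorhinal library of sheep 694 there were 18 and without that of sheep 699 there were 11.

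CAPSL, a calcium-binding protein of ciliated cells, had the largest fold change among the genes named by the rule, at 22.9, 0.207, 0.632, 24.3 and 44.3 CPM, 21.4 in the library labelled motor cortex of sheep 687 and at most 0.534 in the other neocortical libraries. Its fitted log2 fold change of 7.37 ± 0.89 (edgeR adjusted p 1.15e-04) depends on the prior count, since several neocortical libraries had 0 counts. AK7, an adenylate kinase of motile cilia, and C25H10orf105 were likewise highest in the entorhinal libraries of sheep 687, 694 and 699 and the library labelled motor cortex of sheep 687, with log2 fold changes of 2.72 ± 0.48 and 3.40 ± 0.50 (edgeR adjusted p 0.00188 and 5.59e-04).

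Markers of choroid plexus and ependyma moved with the cilium genes, with 4 of 6 tested called higher: FOXJ1, TTR, CLIC6 and OTX2. FOXJ1 is also a member of the cilium list and so part of its score. The count was 2 of 6 without the entorhinal library of sheep 687 or of sheep 694, 1 of 6 without that of sheep 699, 4 of 6 without both libraries of sheep 687 and 0 with the cilium score. TTR lost its call without the entorhinal library of sheep 687, 690, 694 or 699 (edgeR adjusted p 0.0709, 0.136, 0.0698 and 0.0740). Averaged as log2(CPM + 1), the list stood at 3.16, 0.81, 2.32, 2.65 and 2.90 in the entorhinal libraries, 3.84 in the library labelled motor cortex of sheep 687 and at most 1.85 in the other neocortical ones. OTX2, a transcription factor of choroid plexus, was at 1.46, 0.121, 1.21, 0.956 and 0.740 CPM, so that the entorhinal library of sheep 690 was high for choroid plexus genes but low for FOXJ1. The part of these cells in the other called genes was not tested, since the fit with the cilium score cannot separate it from region.

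Glial and vascular lists gave few calls. Of 10 astrocyte markers edgeR called 0, with 3 higher at an unadjusted p below 0.05, and DESeq2 called 0 and voom 1. The list's median log2 fold change was -0.04, and 5 of the 10 were below 0. The 3 higher ones, GFAP, AQP4 and GJA1, differed by 0.71 ± 0.21, 0.90 ± 0.26 and 0.77 ± 0.24 on the log2 scale (edgeR adjusted p 0.0443, 0.0374 and 0.0479). AQP4, the water channel of astrocyte endfeet and ependyma, averaged 1079 ± 455 CPM (SD, n = 5) in entorhinal and 552 ± 192 (SD, n = 25) in neocortical libraries. Of 12 myelin markers 1 was called, CLDN11, the tight junction protein of myelin (1.04 ± 0.32, edgeR adjusted p 0.0474), and the median was 0.73. The mean level of the myelin list was 6.53 to 8.42 in entorhinal and 5.43 to 9.15 in neocortical libraries.

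For 9 microglial, 8 endothelial, 17 immediate early and 13 Alzheimer-linked genes, edgeR called 0 and no member reached an unadjusted p below 0.05. DESeq2 and voom called 0 in these 4 lists too. APP, the amyloid precursor, was at 709 ± 177 CPM (SD, n = 5) against 824 ± 162 (SD, n = 25), and MAPT, which encodes tau, at 445 ± 51.3 against 465 ± 61.5. Of 7 oligodendrocyte precursor markers 0 were called, with 6 higher at an unadjusted p below 0.05. Below that p lay 5376 of all 20352 genes, in either direction. Of 9 meningeal markers edgeR called 0 and voom 1. Among 8 hippocampal and dentate markers edgeR called 0, with 1 lower at an unadjusted p below 0.05, and DESeq2 and voom each called 1. The striatal list gave 1 higher call of 11, the transcription factor SIX3, and the brainstem list 1 of 8, the serotonin-synthesis enzyme TPH2, both with under 4 CPM in every entorhinal library.

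**Figure D4:**
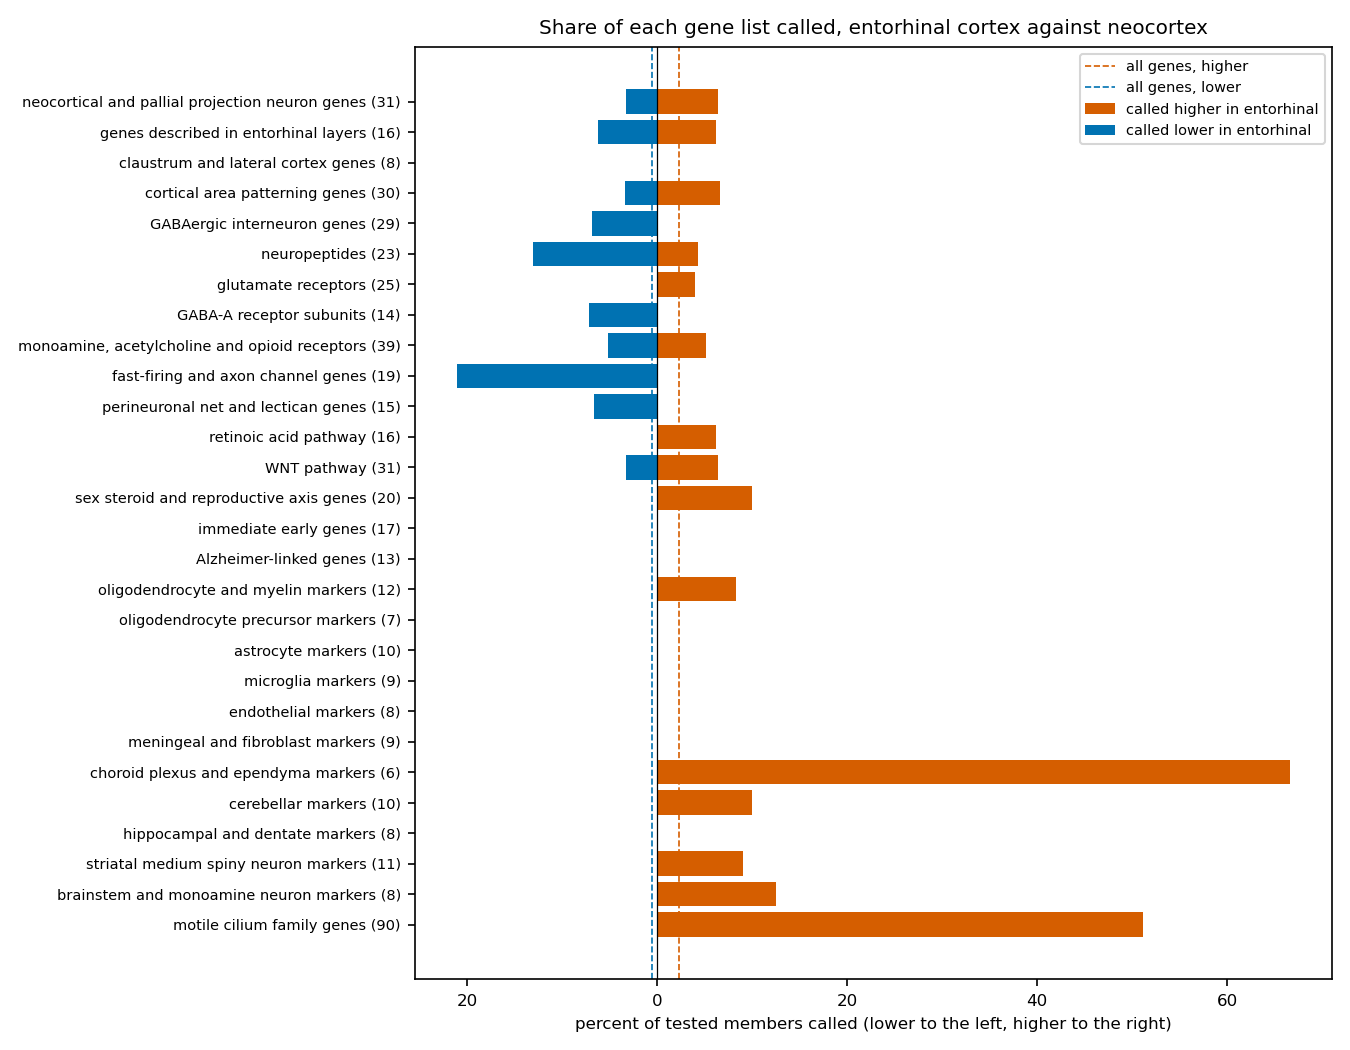
Percent of the tested members of each gene list (number tested in brackets) that were called higher (orange, to the right) or lower (blue, to the left) in entorhinal cortex, with dashed lines at 2.30% higher and 0.536% lower for all genes. Motile cilium and choroid plexus or ependyma lists extend farthest to the right, and the fast-firing list, at 4 of 19, farthest to the left.

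Genes lower in every sheep and named by size of change were led by EPHB6, FREM1, TSHZ3, CDH12 and CDH18. FREM1, an extracellular matrix protein, was at 4.21, 4.41, 2.01, 1.71 and 2.72 CPM against own-sheep means of 11.3, 13.4, 12.3, 12.1 and 6.36. The animals agreed closely, with sheep 688 no exception, and 1 end of the neocortical range, from 3.48 CPM upwards, overlapped (-1.76 ± 0.26, edgeR adjusted p 5.59e-04). FREM1 was also unequal within the neocortex, with means of 15.2 CPM in visual, 14.0 in prefrontal, 12.0 in frontal, 7.42 in posterior parietal and 6.80 in motor cortex.

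CDH12, a classical cadherin of neurons, was at 5.64, 6.64, 2.62, 4.66 and 3.23 CPM against own-sheep means of 11.7, 13.1, 10.1, 12.6 and 9.80, and all 5 sheep lay well below their neocortex (-1.36 ± 0.22, edgeR adjusted p 9.90e-04). When libraries or sheep were left out, FREM1 stayed between -1.94 and -1.55 and CDH12 between -1.47 and -1.24. Its relative CDH18 was at 26.2 CPM in sheep 688 and 2.66 to 11.4 in the other 4 (-1.32 ± 0.28, edgeR adjusted p 0.00652). EPHB6, an ephrin receptor without kinase activity, had the largest decrease of the 12 lower genes named by size of change, a group that did not include PVALB. It was at 13.4, 52.1, 7.21, 3.31 and 5.02 CPM against a neocortical median of 47.0, and here too sheep 688 stayed in the neocortical range (-1.98 ± 0.44, edgeR adjusted p 0.00952).

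Smaller decreases, of -1.24 to -1.16 on the log2 scale, were called for FMN1, an actin nucleator, LGI2, a secreted synaptic protein, STAC2, a calcium channel adaptor, PARM1 and the collagen gene COL19A1. Each was lower than its own neocortex in 5 of 5 sheep, which the rule required, and each had its highest entorhinal value in sheep 688. In the higher direction HSPA2, a heat shock protein of the HSP70 family, was at 58.5 CPM in sheep 699 and 3.73 to 14.8 in the other 4 (1.99 ± 0.33, edgeR adjusted p 0.00110). S1PR3, a sphingosine-1-phosphate receptor, SPATA13, an exchange factor for small GTPases, and MRAP2, an accessory protein of melanocortin receptors, were higher by 1.13 ± 0.24, 1.11 ± 0.19 and 1.09 ± 0.19 (edgeR adjusted p 0.00807, 0.00183 and 0.00206).

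**Figure D5:**
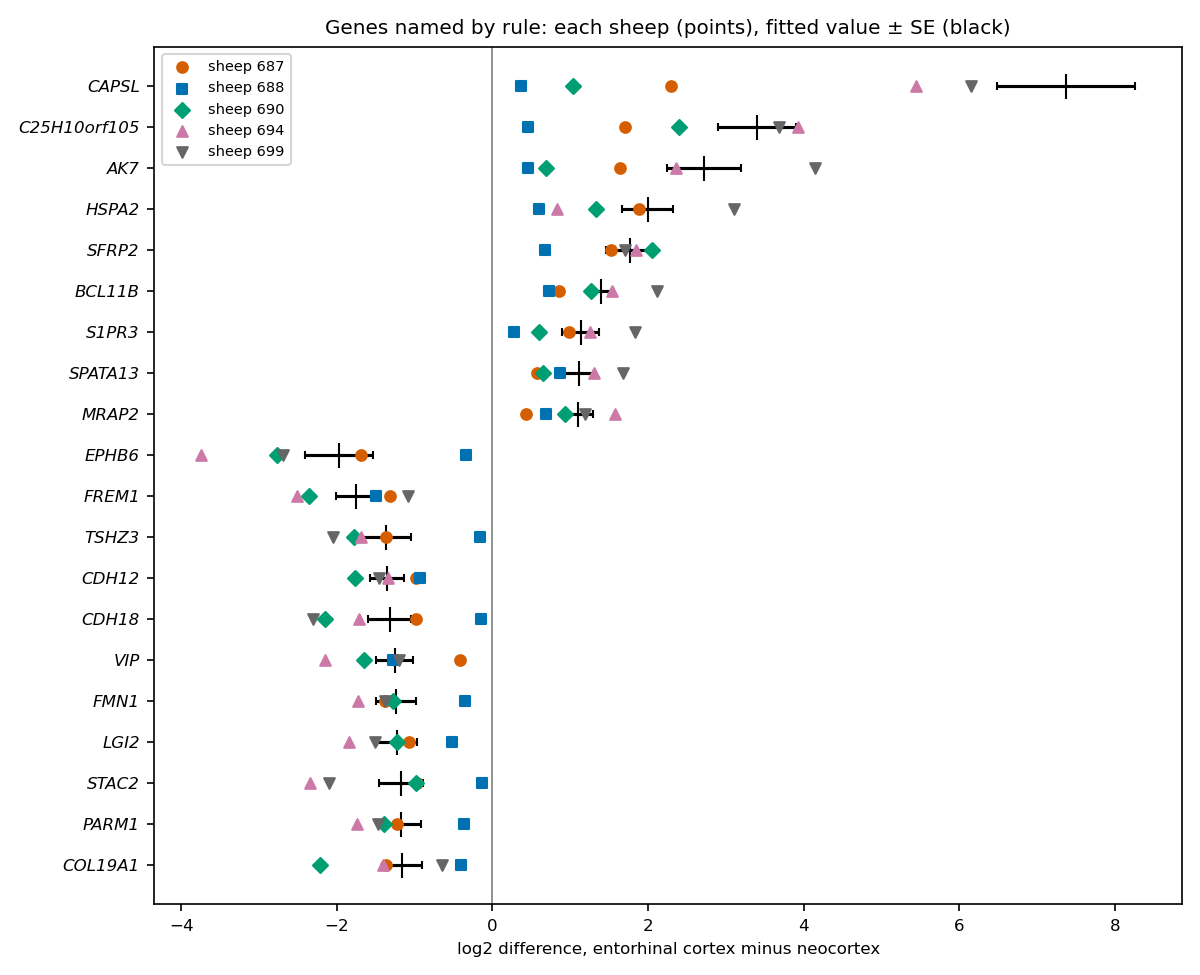
Log2 difference between entorhinal cortex and the neocortical mean for 20 of the 21 genes named by rule, with 1 point per sheep (0.5 CPM added to both values) and the fitted log2 fold change ± SE as a black bar. All points of a gene lie on 1 side of 0, which the rule required. Sheep 688 is nearest to 0 for all but FREM1, VIP, SPATA13 and MRAP2.

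The entorhinal libraries were also set against each neocortical region alone. The edgeR test called 230 genes higher (1.13%) and 70 lower (0.344%) against frontal, 92 (0.452%) and 35 (0.172%) against prefrontal, 139 (0.683%) and 42 (0.206%) against posterior parietal, and 104 (0.511%) and 34 (0.167%) against visual cortex. Against motor cortex it called 0, with 4622 genes at an unadjusted p below 0.05, while DESeq2 called 219 and voom 863. Without the library labelled motor cortex of sheep 687, that comparison gave 585 higher and 263 lower.

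No gene was therefore called by edgeR against all 5 regions, where DESeq2 called 52 and voom 212. Without the library labelled motor cortex of sheep 687 there were 166 higher (0.808%) and 25 lower (0.122%) genes of 20534. Of the 166, 29 were motile cilium family members by name. Another 5 were genes named above by the rule, among them BCL11B and the ciliary genes CAPSL and AK7, which are outside that list. The 25 included 6 named by the rule, FREM1, EPHB6, TSHZ3, LGI2, FMN1 and STAC2, and also HTR3A.

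As a measure of how much neocortical regions differ among themselves in the same fit, each was set against the other 4. The largest count was 2 genes (0.00983%), both higher in motor cortex: the axon guidance gene SEMA3E, with a log2 fold change of 1.76, and CLDN2, a tight junction gene of choroid plexus, with 5.09 (edgeR adjusted p 0.0286 and 0.0225). Without the library labelled motor cortex of sheep 687, motor cortex gave 0 genes, and the largest count was 1 gene, in visual cortex. With all libraries, frontal, prefrontal, posterior parietal and visual cortex gave 0 by edgeR. There 1271, 853, 4351 and 493 genes were at an unadjusted p below 0.05, and DESeq2 called 18, 15, 80 and 13.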

How the data were processed

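Per the labels and the series text, TRIzol RNA was made into Kapa stranded mRNA libraries. Trimmomatic v0.39 trimmed the reads, STAR v2.7.5a placed them on ARS-UI_Ramb_v3.0 and Rsubread v2.20.0 counted them. The deposited table holds unnormalized counts for 31304 genes, with 1 column per library. The strand setting is not given in the sources used here, so overlapping and near-identical genes are uncertain, and sheep genes carry no positions here.

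The 30 libraries were fitted together with edgeR 4.0.16 in R 4.3.3 (TMM factors, filterByExpr, region plus sheep, prior count 0.125). Alternatives used limma 3.58.1 and DESeq2 1.42.0. Same-numbered libraries come from the same animal, and their deviations from region means correlated within sheep (0.331, 0.58, 0.42, 0.194 and 0.355 for 687, 688, 690, 694 and 699). The highest with another sheep was lower each time, at 0.0425, -0.00329, 0.239, 0.18 and 0.0283 in that order, but only just so for sheep 694. Dissections of 1 animal are taken as separate samples, and p-values measure the spread between them.

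Members and lists were chosen with earlier results of these data known, and the cilium family list and 5 alternatives were added after the data were seen. The rule named up to 12 genes per direction with the largest change, 10 CPM or more in whichever group was higher, no placeholder name, the same sign in 5 sheep and a call without the entorhinal library of sheep 687 (9 higher and 12 of 17 lower), plus GABRA6 and up to 6 members per list. Some genes that the rule or a list holds are not reported here. In simulated data for this comparison, with 20168 genes, 41 of 100 genes changed 2-fold and 93 of 100 changed 4-fold were recovered, with 3 false calls. These counts hold only for the spread that was simulated, and do not give the rate of false calls in the real libraries.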

Additional observations from a re-analysis of the deposited data

Results flagged for a closer look

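In 50 groups of 5 entorhinal values (named genes, markers and list scores), 11 had 1 library far from the other 4, by the gap to the nearest value over the whole range. Chance gives this in about 1 in 20 groups of normally distributed values. Values in CPM need not be so distributed, so their chance rate is not known here. The values also share libraries, so they are not independent.

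The library of sheep 688 was the high one in 8 of the 11. It had 52.1 CPM of EPHB6, 18.7 of TSHZ3, 10.7 of FMN1, 25.8 of LGI2, 37.4 of STAC2 and 159 of PARM1. It also had 83.5 CPM of TBR1, and a fast-firing list score of 5.71 as a mean of log2(CPM + 1). For these measures except TBR1 it lay within the range of the neocortical libraries.

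In the library of sheep 699, HSPA2 was high at 58.5 CPM and the area patterning score low at 4.35. In that of sheep 687, GABRA6 was high at 10.5 CPM.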

How the results depend on the processing

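The count of 577 genes became 1024 with voom and quality weights and 0 with the neocortex summed per sheep, with or without the block, or with the cilium score. Leaving out 1 entorhinal library gave 145 to 1039, and leaving out 1 sheep 86 to 953. Without the replicate block, which ignores that samples of an animal are paired, it was 452 (428 higher and 24 lower), and lower calls fell most. The share called higher was 81.1%, and 94.7% without the block and 70.8% with voom.

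Genes called against each region numbered 0, and 2 with RLE factors, 52 with DESeq2, 212 with voom, 0 to 132 without 1 entorhinal library, 0 to 26 without 1 sheep, 191 without the library labelled motor cortex of sheep 687 and 85 without both libraries of that sheep. The largest count for 1 neocortical region, 2, became 43 without the block, 12 with upper quartile factors, 118 with DESeq2, 78 with voom, 0 with the myelin or cilium score, 0 to 5 without 1 sheep, 24 and 17 (both posterior parietal cortex) without the entorhinal library of sheep 694 or 690, 1 without the motor library of sheep 687, alone or with its entorhinal library, and 1 without the posterior parietal library of sheep 694. The cause of these moves was not tested.

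Of the 21 genes named by the rule, 0 changed sign in any of 24 alternatives. The number still called was 18 without the block, 10 without the entorhinal library of sheep 694 or of 699, 14, 9 and 7 without sheep 690, 694 and 699, and 0 with the summed neocortex or cilium score. BCL11B, FREM1, CDH12, CAPSL, HSPA2, SFRP2 and C25H10orf105 were called in 21 of the 24. For 182 named genes and list members, 430 alternative values lost their call and 90 gained 1. None changed sign where the gene was called in the main fit or in the alternative. Sign changes of genes called in neither were not counted.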
